A study of Mus musculus with 8 samples.

Results

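The 9 genes described here encode acute-phase and stress-secreted proteins: Saa3, Hp, Lbp, Ptx3, Lcn2, Slpi, Chil1, Icam1 and Vcam1. They are 9 of the 52325 genes in the tables, and they were selected from measured values, with the difference between wild-type and Mir140-null chondrocytes in view, so every genotype difference of these 9 genes is given as a description with no test. The name holds for 7 of them in the strict sense, since Icam1 and Vcam1 are adhesion receptors held in the cell membrane.

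The study compared the RNA of primary costal (rib) chondrocytes from mice aged 7 days, 4 libraries of wild-type and 4 of Mir140-null cells. Mir140-null mice carry a CRISPR/Cas9 deletion of the microRNA gene Mir140, whose product is abundant in cartilage. The founders, of mixed C57BL/6 and CBA/ca stock, were backcrossed onto C57BL/6J, and wild-type and null lines were both bred from heterozygous crosses. The cells came from these separate lines, so genotype and line cannot be told apart here. Cells were released from the ribs by collagenase, polyadenylated RNA was sequenced, and levels are in TPM (transcript abundance scaled to a fixed total per library), which keeps no read depth. The libraries are called wild-type 1 to 4 and Mir140-null 1 to 4, and no label ties a shared number to a shared litter or day.

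The acute-phase response is the change in secreted proteins that follows infection or injury, driven mainly by interleukin 6 family cytokines through STAT3 and by interleukin 1 and tumour necrosis factor through NF-kB. The liver is its main source, but mesenchymal cells make many of the same proteins locally. Stressed or inflamed chondrocytes are known to make lipocalin 2 and chitinase-like proteins.

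The Mir140 row itself was listed at 0 TPM in all 4 wild-type libraries and at 8.86 TPM in Mir140-null 2, so this row gives no check of the genotype labels in this polyadenylated RNA; by the study's methods, mice were genotyped from ear tissue by PCR and sequencing. The cells carried the chondrocyte markers of their label. The 10 chondrocyte markers summed to between 59300.1 and 74205.5 TPM in wild-type and between 43643.9 and 59915.6 TPM in Mir140-null libraries, and the most abundant was Col2a1.

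Mir140-null 1 and 2 stood apart from the other 6 libraries. Col1a1 was at 47.8 TPM in Mir140-null 1 and 50.1 TPM in Mir140-null 2, against 1326 TPM in Mir140-null 3, 898 TPM in Mir140-null 4 and 793 to 1544 TPM in wild-type. The number of genes at 0.5 TPM or more was 15800 in Mir140-null 1 and 16056 in Mir140-null 2, and between 16991 and 17950 in the others. Fold changes of the 9 genes, and of most genes named below as called, are given also for Mir140-null 3 and 4 alone, a comparison chosen after seeing the data.

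Serum amyloid A3, haptoglobin and lipopolysaccharide-binding protein are classical acute-phase proteins: Saa3 (chr7:46711998-46715700 in GRCm38) codes for an apolipoprotein made outside the liver, Hp (chr8:109575128-109579172) for the plasma carrier of free haemoglobin, and Lbp (chr2:158306493-158332852) for the protein that hands bacterial lipopolysaccharide to CD14. Lbp was at 24.5, 33.3, 21.1 and 24.4 TPM in wild-type 1 to 4 and at 96.0, 67.3, 41.0 and 51.8 TPM in Mir140-null 1 to 4. All 4 null libraries lay above all 4 wild-type libraries, with Mir140-null 1 highest and Mir140-null 3 lowest among the null. The mean was 25.8 ± 5.21 TPM (SD, n = 4) in wild-type and 64.0 ± 23.9 TPM (SD, n = 4) in Mir140-null, a log2 fold change of 1.23 ± 0.26 (SE) on the log2(TPM + 1) scale used for every fold change here.

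Saa3 was close to the lower limit of the data. It was at 0.190, 1.22, 0.154 and 1.10 TPM in wild-type 1 to 4 and at 3.95, 1.71, 1.68 and 1.98 TPM in Mir140-null 1 to 4. The groups did not overlap, Mir140-null 1 was far above the other null libraries, and wild-type 2 and 4 were near the lowest null library while wild-type 1 and 3 were near 0. Saa3 reached 0.5 TPM in 2 of 4 wild-type and 4 of 4 null libraries, so it entered the table of tested genes mainly through the null group. Its mean was 0.664 ± 0.570 TPM (SD, n = 4) in wild-type and 2.33 ± 1.09 TPM (SD, n = 4) in Mir140-null, and its log2 fold change of 1.02 ± 0.30 (SE) understates the ratio of the means of 3.51 because the pseudocount of 1 is large beside these levels. Its relatives Saa1 and Saa2, whose sequences are close enough that reads can be shared, were at most 0.682 and 0.565 TPM in any library.

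Hp was lower still. It was at 0.311, 0.457, 0.0745 and 0.334 TPM in wild-type 1 to 4 and at 1.21, 0.674, 0.247 and 0.599 TPM in Mir140-null 1 to 4. The groups overlapped, since Mir140-null 3 lay below 3 of the wild-type libraries. Hp reached 0.5 TPM in 3 of the 8 libraries and was the 1 gene of the 9 that did not pass the filter of 0.5 TPM in at least 4 libraries.

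Pentraxin 3, the product of Ptx3 (chr3:66219910-66225805), is a soluble pattern recognition molecule made by stromal cells and part of the extracellular matrix. Ptx3 was at 9.26, 16.0, 12.9 and 16.9 TPM in wild-type 1 to 4 and at 23.7, 18.0, 21.8 and 21.1 TPM in Mir140-null 1 to 4. The groups were separated only narrowly, by a ratio of 1.06 between the lowest null library, Mir140-null 2, and the highest wild-type library, wild-type 4. The log2 fold change was 0.61 ± 0.19 (SE), between means of 13.8 ± 3.47 TPM and 21.2 ± 2.40 TPM (SD, n = 4 each).

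Lipocalin 2 and secretory leukocyte protease inhibitor are small secreted proteins of antimicrobial defence: Lcn2 (chr2:32384633-32388252) codes for a binder of bacterial siderophores, and Slpi (chr2:164354070-164389095) for an inhibitor of neutrophil elastase and cathepsin G. Lcn2 was at 7.81, 13.0, 6.37 and 8.28 TPM in wild-type 1 to 4 and at 45.8, 28.3, 16.6 and 21.7 TPM in Mir140-null 1 to 4. Slpi was at 5.98, 12.8, 10.2 and 11.9 TPM in wild-type 1 to 4 and at 131, 66.6, 36.1 and 49.7 TPM in Mir140-null 1 to 4. Both genes were higher in every null library than in any wild-type library, both were highest in Mir140-null 1 and lowest among the null in Mir140-null 3, and both were highest among the wild-type in wild-type 2. Slpi had the widest separation of the 9 genes: its lowest null library was 2.83 times its highest wild-type library, against 1.28 for Lcn2. Their log2 fold changes were 2.56 ± 0.39 (SE) for Slpi and 1.504 ± 0.32 (SE) for Lcn2, with ratios of mean TPM of 6.92 and 3.17.

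Chil1 (chr1:134182176-134190181) codes for chitinase-like protein 1, the mouse counterpart of YKL-40, a glycoprotein that binds chitin without cutting it and that chondrocytes secrete. It was the most abundant of the 9 genes, at 124, 284, 125 and 164 TPM in wild-type 1 to 4 and at 1363, 809, 488 and 670.0 TPM in Mir140-null 1 to 4. The groups did not overlap, and the order among the null libraries was again Mir140-null 1, then 2, then 4, then 3. The mean was 175 ± 75.4 TPM (SD, n = 4) in wild-type and 832 ± 377 TPM (SD, n = 4) in Mir140-null, a ratio of 4.77 and a log2 fold change of 2.23 ± 0.36 (SE). By mean TPM, Chil1 ranked 463 among protein-coding genes in wild-type and 105 in Mir140-null.

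Icam1 (chr9:21015985-21028817) and Vcam1 (chr3:116109949-116129688) code for cell surface receptors of the immunoglobulin superfamily that bind leukocyte integrins and are classical NF-kB targets. Icam1 was at 93.4, 58.1, 46.7 and 68.3 TPM in wild-type 1 to 4 and at 629, 379, 168 and 191 TPM in Mir140-null 1 to 4. All null libraries were above all wild-type libraries, and Mir140-null 1 and 2 were well above Mir140-null 3 and 4. Its log2 fold change was 2.18 ± 0.42 (SE), between means of 66.6 ± 19.9 TPM and 342 ± 213 TPM (SD, n = 4 each).

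Vcam1 differed from the other 8 genes in direction. It was at 31.6, 13.7, 13.3 and 17.2 TPM in wild-type 1 to 4 and at 8.02, 8.09, 19.3 and 15.9 TPM in Mir140-null 1 to 4. The groups overlapped: Mir140-null 1 and 2 were below every wild-type library, while Mir140-null 3 and 4 lay within the wild-type range. The log2 fold change was -0.54 ± 0.36 (SE) over all libraries and -0.02 for Mir140-null 3 and 4 alone, and it was -0.27 without wild-type 1, so the lower mean rests on Mir140-null 1 and 2 and on wild-type 1, the highest library.

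**Figure D1:**
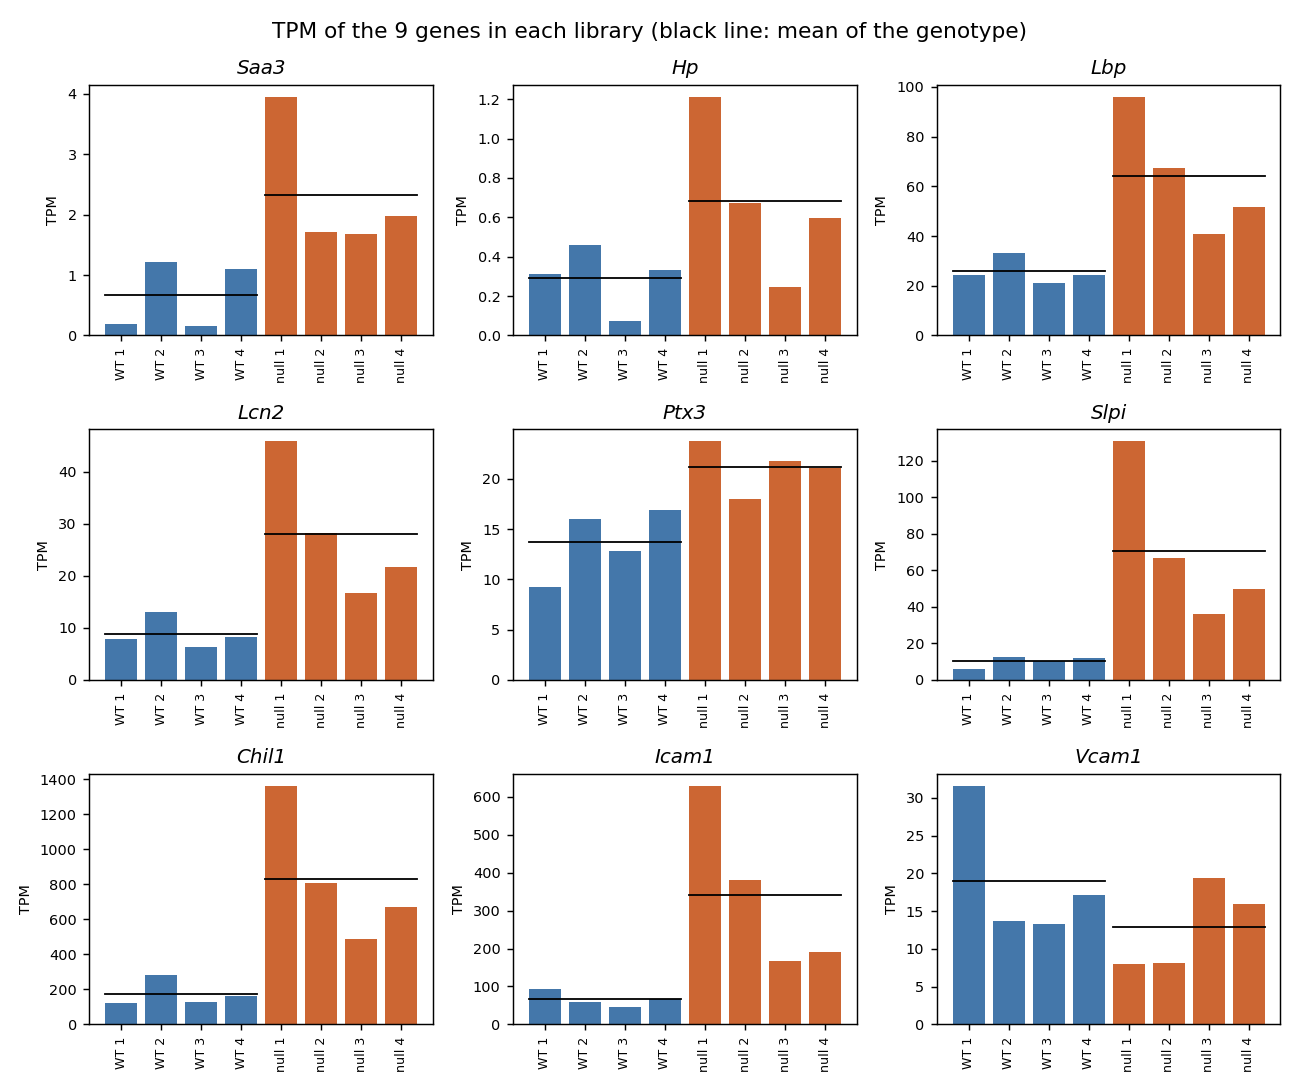
TPM of each of the 9 genes (vertical axes from 0) in wild-type libraries 1 to 4 (blue) and Mir140-null libraries 1 to 4 (orange), with a black line at the mean of each genotype (n = 4). Slpi lies between 36.1 and 131 TPM in the null libraries and between 5.98 and 12.8 TPM in wild-type, while Vcam1 overlaps between the genotypes.

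Together, 8 of the 9 genes had a higher mean in Mir140-null and 1 had a lower mean, and in 7 of the 9 every null library was above every wild-type library, beside 15.7% of all 17177 genes tested that lay apart in the same direction. Nothing is read from this count, since the genes were chosen on this comparison. Across the 9 genes the median log2 fold change was 1.23, and over all genes tested it was -0.01.

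Leaving out 1 library at a time, the log2 fold change ran from 2.21 to 2.82 for Slpi, from 1.96 to 2.49 for Chil1, from 1.82 to 2.45 for Icam1 and from 1.24 to 1.71 for Lcn2. It ran from 1.00996 to 1.41 for Lbp, from 0.81 to 1.18 for Saa3, from 0.45 to 0.72 for Ptx3 and from 0.22 to 0.49 for Hp. For Vcam1 it lay between -0.75, without Mir140-null 3, and -0.27, without wild-type 1.

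The genotypes shared the top and bottom of the order of levels and differed in the middle. In wild-type the mean TPM fell from Chil1 to Icam1, Lbp, Vcam1, Ptx3, Slpi, Lcn2, Saa3 and Hp. The libraries of Chil1, Icam1 and Lbp formed separate ranges, whereas each neighbouring pair from Lbp down to Lcn2 overlapped, as did Saa3 and Hp. In Mir140-null the order was Chil1, Icam1, Slpi, Lbp, Lcn2, Ptx3, Vcam1, Saa3 and Hp, in which Slpi had moved up past Lbp, Vcam1 and Ptx3, and Lcn2 had passed Vcam1 and Ptx3. Gaps with no overlap lay between Icam1 and Slpi, between Vcam1 and Saa3 and between Saa3 and Hp.

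The highest null library was 4.898 times the lowest for Hp, 3.75 times for Icam1, 3.62 times for Slpi, 2.79 times for Chil1 and 2.75 times for Lcn2, then 2.41 times for Vcam1, 2.35 times for Saa3, 2.34 times for Lbp and 1.32 times for Ptx3. The wild-type libraries were further apart than the null for Saa3 (7.90 times), Hp (6.14 times) and Ptx3 (1.83 times), and for the other 6 genes less far, from 1.58 times for Lbp to 2.38 times for Vcam1. For 6 of the 9 genes (Lcn2, Chil1, Slpi, Hp, Lbp and Icam1) the null libraries had the same order, Mir140-null 1, 2, 4 and 3 from high to low, and Mir140-null 1 was the highest null library for 8 genes, all but Vcam1. For 6 genes (Saa3, Lcn2, Chil1, Slpi, Hp and Lbp) the highest wild-type library was wild-type 2. The median log2 difference of the 9 genes from the wild-type mean was 1.87 in Mir140-null 1, 1.37 in Mir140-null 2, 0.75 in Mir140-null 3 and 0.998 in Mir140-null 4, beside medians of all tested genes of -0.09, -0.05, 0.11 and 0.05.

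With Mir140-null 3 and 4 alone, the log2 fold changes against the 4 wild-type libraries were smaller for most genes but kept their sign. They were 1.997 for Slpi, 1.79 for Chil1, 1.46 for Icam1, 1.06 for Lcn2, 0.83 for Lbp and 0.83 for Saa3. Ptx3 was at 0.64, about its value over all libraries, and Hp at 0.13. In this comparison of 2 against 4 libraries, limma called 386 genes higher and 234 lower among all genes (adjusted p under 0.05), against 1797 and 1100 with all libraries.

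**Figure D2:**
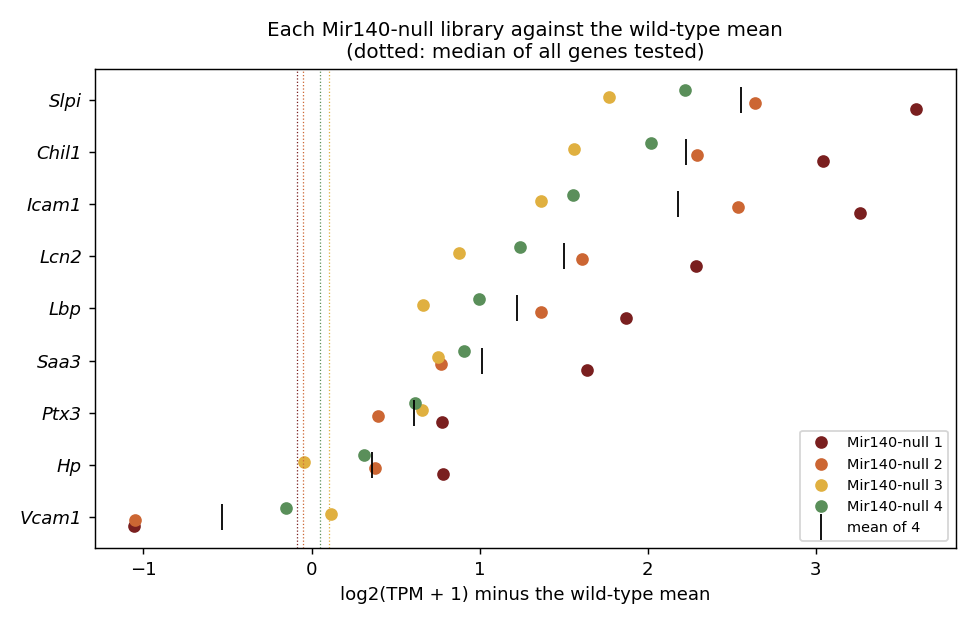
Difference of each Mir140-null library (coloured points) from the mean of the 4 wild-type libraries, in log2(TPM + 1), for the 9 genes, with a black bar at the mean of the 4 null libraries and a dotted line at each library's median over all tested genes. Slpi runs from 1.77 in Mir140-null 3 to 3.60 in Mir140-null 1, and Vcam1 is at -1.06 and -1.05 in Mir140-null 1 and 2.

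After the mean of each genotype was removed from every gene, several of the 9 genes varied together across the 8 libraries. Pearson r, given as a description over 8 libraries that share Mir140-null 1 as an extreme, was 0.99 between Lcn2 and Lbp, 0.97 between Lcn2 and Chil1 and 0.95 between Lcn2 and Hp. Slpi had r of 0.87 with Chil1 and 0.85 with both Lcn2 and Lbp. Icam1 was less close to this group, with r of 0.81 with Lbp and 0.42 with Saa3. Ptx3 followed Saa3 (r = 0.78) but not Icam1 (r = -0.16). Vcam1 ran against all 8 others, from r of -0.36 with Icam1 to -0.85 with Slpi.

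**Figure D3:**
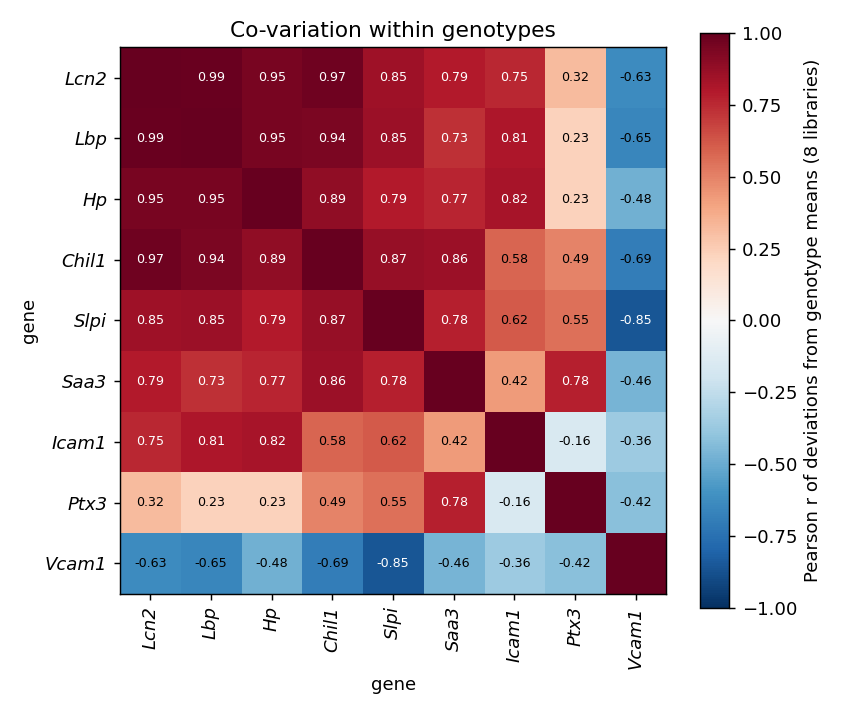
Pearson r between the 9 genes over 8 libraries, computed on log2(TPM + 1) after subtracting each genotype's mean, so that the difference between genotypes does not enter. Lcn2, Lbp, Hp and Chil1 form a block of r from 0.89 to 0.99, and the row of Vcam1 is negative throughout.

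By the same measure, the 5 genes closest to the mean profile of the 8 tested genes, out of 9455 other genes at a mean of 5 TPM or more, were Kcna6, Mylk2, Larp1, Numbl and Csnk2a1, with r from 0.97 to 0.99. Closest to single genes were Mylk2 for Saa3 (r = 0.98), Rrp1b for Lcn2 (r = 0.99), Arhgef17 for Chil1 (r = 0.98) and St3gal1 for Slpi (r = 0.99). For the rest they were Pcolce2 for Lbp (r = 0.99), Adprhl2 for Ptx3 (r = 0.98), Gm48275 for Icam1 (r = 0.995) and Lix1l for Vcam1 (r = 0.99). St3gal1, a sialyltransferase, resembled Slpi in its levels too: it was at 5.44 to 9.48 TPM in wild-type and at 45.5, 33.4, 21.3 and 26.0 TPM in Mir140-null 1 to 4. These are the extremes of 9455 candidates over 8 libraries.

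The bases before the start site are shown for 3 of the 9 genes, which belong to different families and were not picked by co-variation. RefSeq start regions (250 bases before to 50 after the start, GRCm38.p6) were found for 6 of the 9 genes: Saa3, Lcn2, Chil1, Slpi, Ptx3 and Icam1. The stretches below, 5′ to 3′ on the strand of the gene and ending before the annotated gene, are from chr7:46715701-46715926 on the minus strand for Saa3, chr1:134181906-134182155 on the plus strand for Chil1 and chr9:21015690-21015939 on the plus strand for Icam1, with the motif matches described next in capitals.
Saa3: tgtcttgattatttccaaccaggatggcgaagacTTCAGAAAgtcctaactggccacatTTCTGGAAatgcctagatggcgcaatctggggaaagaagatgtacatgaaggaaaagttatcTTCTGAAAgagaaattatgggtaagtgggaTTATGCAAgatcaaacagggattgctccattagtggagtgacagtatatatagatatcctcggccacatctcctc
Chil1: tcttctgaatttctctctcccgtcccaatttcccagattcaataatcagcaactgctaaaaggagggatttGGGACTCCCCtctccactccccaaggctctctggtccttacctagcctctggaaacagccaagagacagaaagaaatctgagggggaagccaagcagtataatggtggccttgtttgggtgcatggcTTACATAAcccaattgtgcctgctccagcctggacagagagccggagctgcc
Icam1: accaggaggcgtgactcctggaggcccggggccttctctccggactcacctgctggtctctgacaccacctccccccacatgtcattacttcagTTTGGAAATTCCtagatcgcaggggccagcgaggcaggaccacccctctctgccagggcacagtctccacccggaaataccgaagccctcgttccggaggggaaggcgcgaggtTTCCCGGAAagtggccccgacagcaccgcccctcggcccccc

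The motifs searched on both strands were the C/EBP form TTNNGNAA, the STAT form TTCNNNGAA, the classical NF-kB consensus by name and, added after the sequences were seen, a 9-base NF-kB-like form, GGANNTTCC. TTNNGNAA was present in all 6 regions, with 4 matches in Saa3, 3 in Slpi and 1 each in Lcn2, Chil1, Ptx3 and Icam1, and in 40.7% of all 32851 start regions. Distances are counted from the RefSeq start. For Saa3 this start lies inside the annotated gene, so the stretch printed above holds 226 of the 250 bases before it. The Saa3 match nearest its RefSeq start, TTATGCAA, began 99 bases before that start. The NF-kB consensus was found in Chil1, beginning 179 bases before the start, and in Ptx3, across the start itself, and in 8.46% of all regions. Icam1 held GGAAATTCC, 153 bases before its start, where it overlaps the TTNNGNAA match TTTGGAAA, and the STAT form TTCCCGGAA at 42 bases. GGANNTTCC was in 4.26% and TTCNNNGAA in 8.30% of all regions. These are matches of letters and say nothing of binding.

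The microRNA arm that the tables hold for the deleted gene is miR-140-3p (RefSeq, GRCm38.p6, chr8:107551288-107551308, plus strand). It is shown with its seed, bases 2 to 8, in capitals, and then with the seed shifted by 1 base, bases 3 to 9, in capitals, because 3p forms that start 1 base later carry that seed. The 5p arm, miR-140-5p, was not analysed here.
miR-140-3p: uACCACAGgguagaaccacgg
miR-140-3p, shifted seed: uaCCACAGGguagaaccacgg

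Matches of 7 bases were sought in the longest annotated 3′ UTR of each of the 9 genes. CTGTGGT, the match of bases 2 to 8, occurred at 2 places in Lbp and 1 in Ptx3, and CCTGTGG, the match of bases 3 to 9, at 1 place in Slpi. The other 6 genes (Saa3, Lcn2, Chil1, Hp, Icam1 and Vcam1) held neither. Of 2 further 7-base forms, the match of bases 2 to 7 with an adenine after it occurred at 1 place in Vcam1, and the match of bases 3 to 8 with an adenine after it at 1 place in Slpi, overlapping its other match. Among 12982 tested genes with an annotated 3′ UTR, 30.2% held 1 or both of the first 2 forms. The sites are given with their flanks and with the 7 bases in capitals.
Lbp, base 278 of the 3′ UTR: agcgggcaCTGTGGTtttaaatt
Lbp, base 434: tgccggagCTGTGGTctctaagg
Ptx3, base 201: gccttataCTGTGGTgctttcag
Slpi, base 129: gcttggatCCTGTGGaccagggt
Vcam1, base 185: gtgtgataTGTGGTAtatttata

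Among 25 other acute-phase proteins, 12 passed the filter, and in limma's test across all genes (adjusted p under 0.05) 3 of these were called higher in Mir140-null (25.0%), beside 10.5% of all genes tested, none was called lower, beside 6.40%, and 9 were not called; 2 were lower at an unadjusted p under 0.05. Their median log2 fold change was 0.01, and over all genes tested it was -0.01. This list and the lists after it were chosen with earlier results of these data known. Their shares and calls are therefore a description and no independent support for the 9 genes. Serpina3n, a serine protease inhibitor with near relatives in its gene cluster, rose from a mean of 63.4 to 117 TPM (0.89 ± 0.18 SE, limma adjusted p = 0.0163), and Cp, which codes for ceruloplasmin, from 6.24 to 12.7 TPM (0.92 ± 0.17 SE, limma adjusted p = 0.0149). The third was Orm3, an orosomucoid gene, at means of 0.167 and 0.727 TPM; it reached 0.5 TPM in none of the wild-type and all 4 null libraries, so it passed the filter through the null group alone and its call is no support. Among the other 11 tested genes, 2 were called higher. A2m, the most abundant of the list, had means of 331 TPM (wild-type) and 314 TPM (null) and was not called. C3, which codes for complement component 3, was at 18.3, 37.1, 21.8 and 46.4 TPM in wild-type 1 to 4 and at 48.6, 39.3, 86.1 and 98.7 TPM in Mir140-null 1 to 4; the groups overlapped, Mir140-null 3 and 4 were the highest, and it was not called (limma adjusted p = 0.0787).

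Serpina3n and Cp kept their calls without any 1 library. Both lost them with Mir140-null 3 and 4 alone (log2 fold changes of 1.008 and 0.77), and Serpina3n also with the replicate block. Over all libraries the values were 0.89 and 0.92, so the fold change of Serpina3n was not smaller in that comparison. Fewer genes were called higher in both settings, 386 with Mir140-null 3 and 4 alone and 671 with the block, against 1797. A lost call there need not mean a smaller difference. Cp was at 15.9, 12.4, 10.96 and 11.4 TPM in Mir140-null 1 to 4, the order of Lbp, Lcn2, Slpi, Chil1 and Icam1, whereas Serpina3n was highest in Mir140-null 4, at 139 TPM.

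Of 27 relatives of the 9 proteins by family (chitinases, whey acidic proteins, neuronal pentraxins, adhesion receptors and selectins), 16 were tested. In limma's test 2 were called higher (12.5%), 1 lower (6.25%) and 13 neither way, beside 10.5% higher and 6.40% lower of all genes tested. The shares were near those of all genes. The median log2 fold change was -0.06, and 2 were lower at an unadjusted p under 0.05, the called gene among them. Alcam, an adhesion molecule of the same superfamily as Icam1 and Vcam1, went from a mean of 3.93 to 7.95 TPM (0.88 ± 0.21 SE, limma adjusted p = 0.0269). Icam5 was called higher at means of 0.493 and 1.07 TPM, and reached 0.5 TPM in 1 of 4 wild-type and 4 of 4 null libraries, so it entered the test mainly through the null group. Madcam1 was the gene called lower, at means of 0.734 and 0.214 TPM; it reached 0.5 TPM in all 4 wild-type and none of the null libraries, so its call is no support. The calls of Alcam and Icam5 were sensitive to single libraries: Alcam lost its call in 4 of 8 fits that left out 1 library, namely wild-type 1 or 2 or Mir140-null 1 or 2 (limma adjusted p up to 0.0708), and Icam5 in 6 of 8, all but wild-type 2 and Mir140-null 3 (up to 0.0795). Both also lost it with no filter and with the replicate block, settings in which fewer of all genes were called higher (977 and 671, against 1797). The block uses replicate numbers that were not read as pairs. Alcam was at 0.72 and not called with Mir140-null 3 and 4 alone, where Icam5 did not pass the filter. The most abundant relatives, the neuronal pentraxins Nptx2 (means of 53.9 and 31.1 TPM) and Nptx1 (13.5 and 18.2 TPM) and the adhesion molecule Mcam (10.4 and 7.04 TPM), were not called.

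Receptors and binding partners of the 9 proteins numbered 25, of which 17 were tested. In limma's test 5 were called higher (29.4%), 1 lower (5.88%) and 11 neither way, beside 10.5% and 6.40% of all genes tested. The median log2 fold change was 0.06, and 3 were lower at an unadjusted p under 0.05, the called gene among them. Cd14, the receptor to which Lbp delivers lipopolysaccharide, rose from 13.5, 21.4, 15.04 and 17.7 TPM in wild-type 1 to 4 to 116, 107, 40.2 and 38.9 TPM in Mir140-null 1 to 4 (1.94 ± 0.39 SE, limma adjusted p = 0.0174). As for Icam1, every null library was above every wild-type library and Mir140-null 1 and 2 were the highest; with Mir140-null 3 and 4 alone its log2 fold change was 1.20. Tlr2, a receptor for bacterial lipoproteins that also senses serum amyloid A, rose from a mean of 89.7 to 172 TPM (0.96 ± 0.16 SE, limma adjusted p = 0.0106). Cd44, the hyaluronan receptor, rose from 93.9 to 220 TPM (1.24 ± 0.17 SE, limma adjusted p = 0.00699), and its null libraries were close together, between 188 and 237 TPM. The log2 fold changes of Tlr2 and Cd44 were 0.91 and 1.14 with Mir140-null 3 and 4 alone, and neither was called.

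Msn, which codes for the linker moesin that ties Icam1 and Vcam1 to the cytoskeleton, and the integrin subunit gene Itgb1 were the other genes called higher, and the integrin subunit gene Itgam was the 1 called lower, from a mean of 2.24 to 0.909 TPM; these 3 were named after their values were seen. Itgb1 (0.42 ± 0.09 SE, limma adjusted p = 0.0232) lost its call without any 1 of the wild-type libraries or Mir140-null 2, with an adjusted p up to 0.0609, and also with quantile normalization and the replicate block. Itgam kept its call without any 1 library (limma adjusted p up to 0.049) but lost it with no filter, quantile normalization or the replicate block. When the null group was Mir140-null 3 and 4 alone, Msn was at 0.68 and Itgb1 at 0.50, neither called, and Itgam at -0.83, called lower. Lrp1, the most abundant of this list and a receptor that clears the haemopexin complex of haem, was at 269 and 280 TPM and was not called.

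Cytokines that induce acute-phase genes numbered 12, of which 7 were tested, 1 was called higher (14.3%) and none lower in limma's test, beside 10.5% and 6.40% of all genes tested, with a median log2 fold change of 0.11; 0 were lower at an unadjusted p under 0.05. Clcf1, an interleukin 6 family cytokine, was at means of 20.4 and 37.1 TPM (0.83 ± 0.24 SE, limma adjusted p = 0.0478), with overlapping groups, and kept its call without wild-type 2 or Mir140-null 3 but lost it without any other single library (limma adjusted p up to 0.111). It was called in 4 of 16 alternatives, and lost its call also with a pseudocount of 0.1, no filter, either scaling, the replicate block and Mir140-null 3 and 4 alone, where its log2 fold change was 0.56. Il6 was at 27.3, 43.2, 46.0 and 34.3 TPM in wild-type 1 to 4 and at 34.0, 25.1, 66.4 and 44.3 TPM in Mir140-null 1 to 4. The groups overlapped fully and the highest library was Mir140-null 3, the null library in which Lbp, Lcn2, Slpi, Chil1 and Icam1 were lowest. Lif was at means of 85.2 and 121 TPM and was not called (limma adjusted p = 0.109).

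All 29 receptors and regulators of induction were tested. In limma's test 8 were called higher (27.6%), none lower and 21 neither way, beside 10.5% and 6.40% of all genes tested. Their median log2 fold change was 0.46, and 0 were lower at an unadjusted p under 0.05. With the filter at a mean of 5 TPM, 7 of 26 were called higher (26.9%), beside a larger share of all genes tested, 17.0%. Il6st, which codes for the shared receptor subunit gp130, rose from 211, 372, 300 and 341 TPM in wild-type 1 to 4 to 516, 613, 503 and 579 TPM in Mir140-null 1 to 4 (0.88 ± 0.18 SE, limma adjusted p = 0.0174). Osmr, its partner in the oncostatin M receptor, rose from a mean of 30.7 to 60.9 TPM (0.95 ± 0.20 SE, limma adjusted p = 0.0187). Both were higher in 4 of 4 null libraries, and both lost their call without Mir140-null 2 (limma adjusted p = 0.0509 and 0.0539), Osmr also without wild-type 3 or wild-type 4 and with the replicate block. They were at 0.85 and 0.68 with Mir140-null 3 and 4 alone, and neither was called.

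Tnfrsf1b, which codes for tumour necrosis factor receptor 2, rose from 12.4, 19.5, 10.96 and 20.7 TPM to 48.6, 55.9, 41.0 and 48.2 TPM (1.59 ± 0.21 SE, limma adjusted p = 0.00651). Nfkb1, which codes for the NF-kB subunit p105 and p50, rose from 40.7, 64.1, 48.4 and 55.3 TPM to 182, 154, 112 and 103 TPM (1.36 ± 0.21 SE, limma adjusted p = 0.00905). Both kept their calls without any 1 library, and like Icam1 and Cd14, Nfkb1 was highest in Mir140-null 1 and 2. Tnfrsf1b was at 1.48 and Nfkb1 at 1.04 with Mir140-null 3 and 4 alone, both called. Nfkbia, which codes for the NF-kB inhibitor IkB alpha and was the most abundant gene of the list, was at means of 397 and 468 TPM, and Socs3, an inhibitor of interleukin 6 signalling, at 264 and 204 TPM; neither was called. Fewer than 8 genes of this list were called higher in each of the 8 fits that left out 1 library, as fewer were over all genes: 6 (20.7%) without wild-type 2, wild-type 4 or Mir140-null 3, beside 7.55%, 5.19% and 9.30% of all genes tested, and 5 (17.2%) without wild-type 1, Mir140-null 1 or Mir140-null 4, beside 6.04%, 6.58% and 8.56%. The count was 4 (13.8%) without wild-type 3, beside 4.78%, and 3 (10.3%) without Mir140-null 2, beside 4.48%. Without Mir140-null 3, 1 gene (3.45%) was also called lower, beside 1251 of all 16669 genes tested. With Mir140-null 3 and 4 alone, 4 of the 79 genes of all 5 lists that passed the filter were called higher (5.06%), beside 2.34% of all genes tested: Cd14, and 3 of this list that include Tnfrsf1b and Nfkb1. With all libraries it was 19 of 81 (23.5%), beside 10.5%. With all libraries and the filter at a mean of 5 TPM it was 16 of 57 (28.1%), beside 17.0%.

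**Figure D4:**
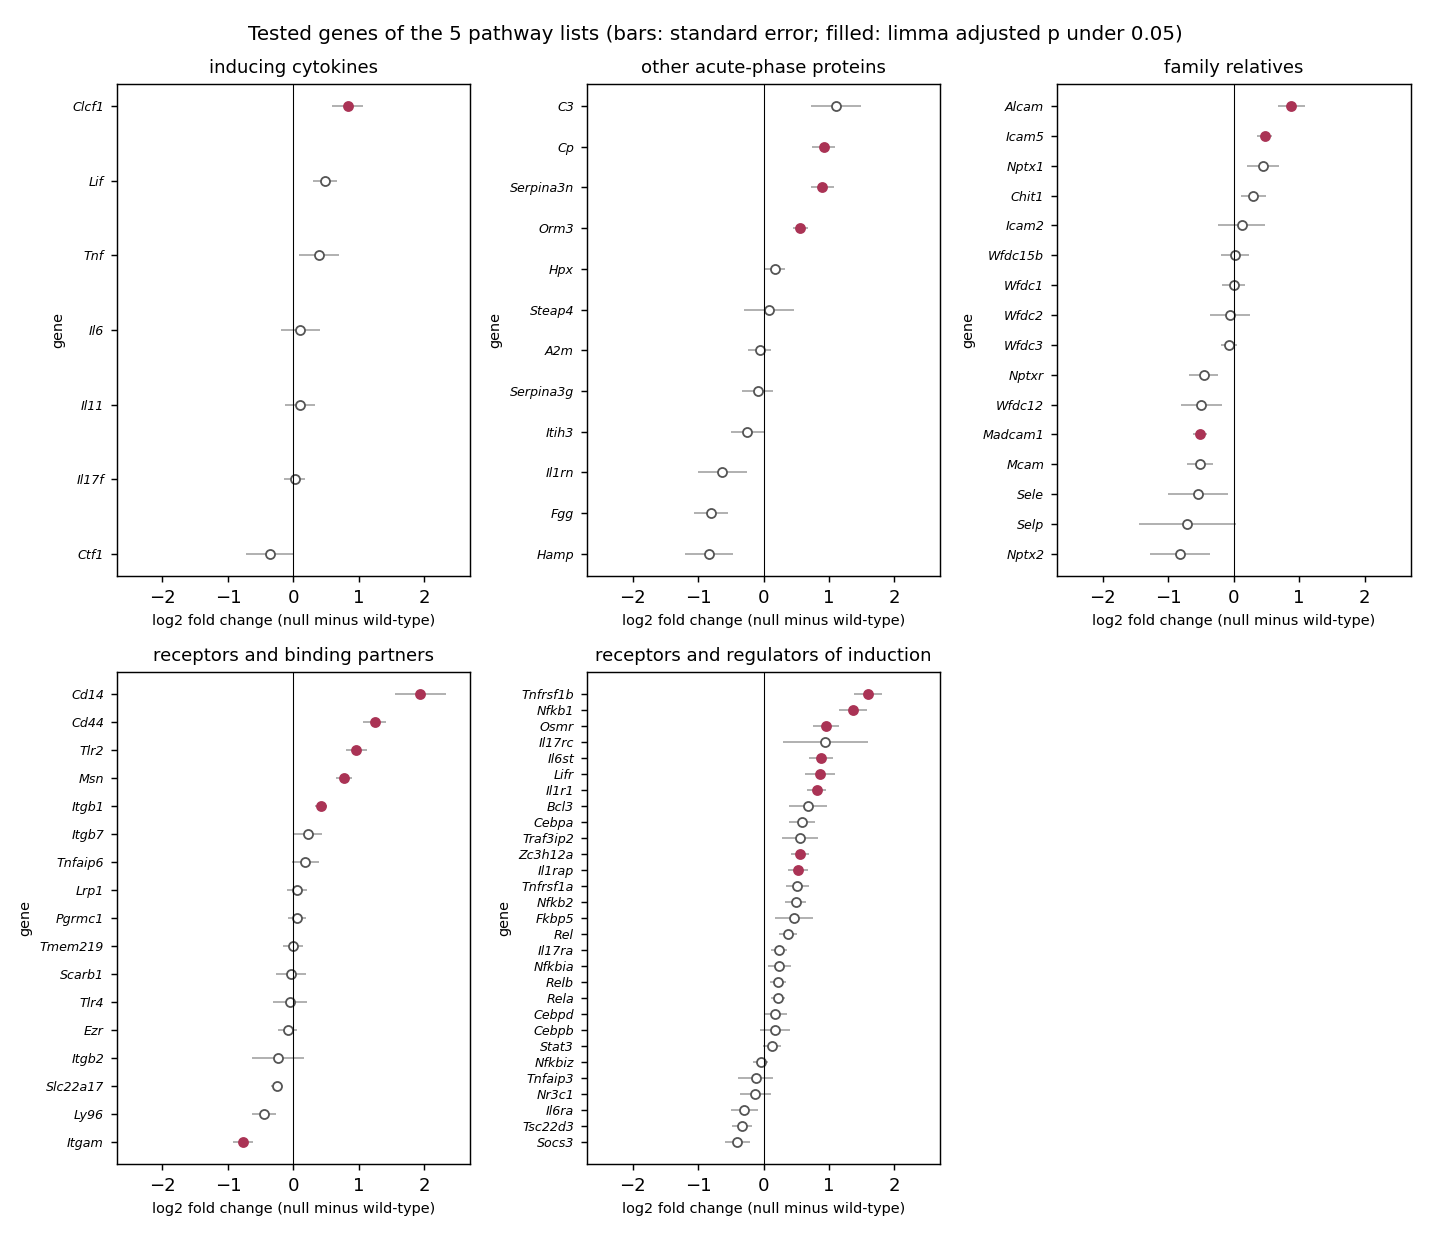
Log2 fold change of TPM + 1, Mir140-null minus wild-type (4 libraries each), with standard errors, for the tested genes of the 5 lists; filled points have a limma adjusted p under 0.05. Of the points, 19 are filled on the higher side and 2 (Madcam1 and Itgam) on the lower; Orm3 and Madcam1 passed the filter in 1 genotype only.

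Leukocytes also make Lcn2, Slpi and Chil1. The 10 neutrophil markers summed to 2.76, 5.48, 6.99 and 5.75 TPM in wild-type 1 to 4 and to 10.7, 7.03, 10.4 and 9.88 TPM in Mir140-null 1 to 4. Every null library was above every wild-type library, as for Lcn2, Slpi and Chil1. The most abundant marker was Camp, which reached 6.54 TPM in Mir140-null 1; without it the sums were 2.30, 4.12, 5.001 and 4.65 TPM in wild-type and 4.20, 3.49, 6.81 and 6.94 TPM in Mir140-null, and the groups overlapped. Of the 10 markers, 6 were under 1 TPM in every library and none was at 0 in all. In Mir140-null 3 the whole sum of 10.4 TPM stood beside 16.6 TPM of Lcn2, 36.1 TPM of Slpi and 488 TPM of Chil1. The 10 monocyte and macrophage markers summed to 22.7, 40.3, 33.4 and 32.4 TPM in wild-type and to 17.5, 17.2, 31.2 and 31.0 TPM in Mir140-null, nearly all of it Cd68, with 7 of the 10 under 1 TPM in every library. This list was lowest in Mir140-null 1 and 2, where Icam1, Slpi and Chil1 were highest.

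Lymphocyte markers summed to between 1.44 and 5.48 TPM, led by Ighm, with Nkg7 listed at 0 in every library. The 10 hepatocyte markers, which bear on the usual source of Hp, Lbp and other acute-phase proteins, summed to between 0.547 and 1.29 TPM, led by Apoa1, with Ttr, Apoa2 and Serpina1c listed at 0 throughout. Adipocyte markers summed to 30.0, 43.5, 68.1 and 54.7 TPM in wild-type and to 30.0, 34.1, 78.5 and 53.2 TPM in Mir140-null, nearly all of it Fabp4, with Cfd listed at 0 in every library.

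Markers of cells that adjoin cartilage set Mir140-null 1 and 2 apart. The 10 fibroblast and perichondrium markers summed to 6161, 3673, 6601 and 3915 TPM in wild-type 1 to 4 and to 1015, 1201, 5860.1 and 4474 TPM in Mir140-null 1 to 4, the most abundant being Col1a2. The 10 osteoblast markers, led by Col1a1, which is on both lists, summed to 1680, 960.0, 1691 and 1051 TPM and to 233, 156, 1519 and 1111 TPM. Without Col1a1 the osteoblast sum was 136, 167, 208 and 195 TPM in wild-type and 185, 106, 193 and 213 TPM in Mir140-null, most of it Spp1. The other 8 markers summed to 38.7, 30.2, 42.3 and 30.8 TPM in wild-type and to 16.5, 16.1, 33.8 and 29.8 TPM in Mir140-null, again lowest in Mir140-null 1 and 2. Pdgfra, on the fibroblast list, went the other way, at 11.8 to 19.8 TPM in wild-type and 31.5 to 36.5 TPM in Mir140-null. Both whole sums were lowest in Mir140-null 1 and 2, the libraries with the highest Lbp, Lcn2, Slpi, Chil1 and Icam1 and the lowest Vcam1, while Mir140-null 3 and 4, within the wild-type range on both lists, also had these 5 genes above every wild-type library. Fewer cells of a type and less RNA per cell cannot be told apart in such data.

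The 10 endothelial markers, led by Esam, summed to 27.4, 33.2, 62.2 and 50.4 TPM in wild-type 1 to 4 and to 19.1, 13.9, 95.2 and 40.3 TPM in Mir140-null 1 to 4. Endothelial cells carry Icam1 and Vcam1 on their surface; Icam1 was lowest among the null in Mir140-null 3, where the endothelial sum was highest, and Vcam1 was highest there. The erythroid markers, led by Hbb-bs, summed to 705, 646, 1236 and 1854 TPM and to 432, 257, 1725 and 1366 TPM. The skeletal muscle markers, led by Tnnt3, summed to 104, 67.0, 81.7 and 100.3 TPM and to 34.6, 59.6, 57.8 and 54.0 TPM. This muscle sum was lower in every null library than in any wild-type library. Without Tnnt3 it was 23.0 to 34.9 TPM in wild-type and 5.19 to 23.5 TPM in Mir140-null, and the groups overlapped. The chondrocyte sum was 73948.2, 74205.5, 59300.1 and 72712.9 TPM in wild-type and 43643.9, 59819.5, 44804.2 and 59915.6 TPM in Mir140-null. Without Col2a1 it was 12318.2, 12763.4, 11406.6 and 12539.2 TPM in wild-type and 9225.48, 11458.4, 9682.15 and 12159.6 TPM in Mir140-null. Acan, on this list, went the other way, at 447 to 681 TPM in wild-type and 876 to 1085 TPM in Mir140-null. The part of these lists in the levels of the 9 genes was not tested.

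The share of TPM from mitochondrial genes was 4.06%, 4.94%, 6.99% and 4.995% in wild-type 1 to 4 and 8.80%, 8.41%, 10.1% and 8.55% in Mir140-null 1 to 4. It was higher in every null library, as were 7 of the 9 genes, but its highest value was in Mir140-null 3, the null library with the lowest Lbp, Lcn2, Slpi, Chil1 and Icam1. Its part in their levels was not tested.

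**Figure D5:**
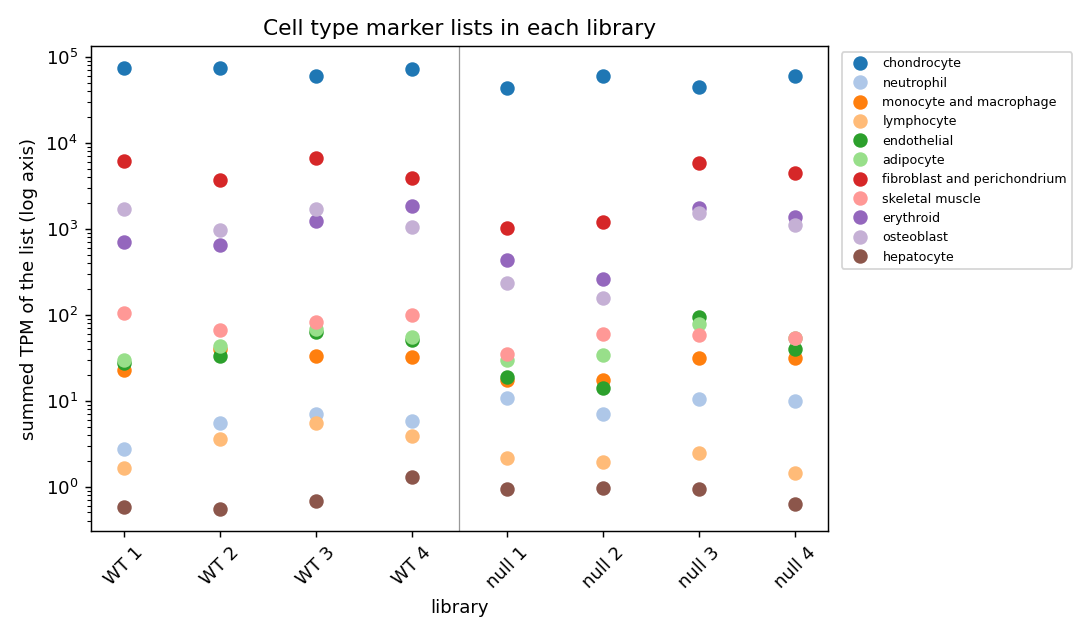
Summed TPM (log axis) of 11 cell type marker lists in wild-type libraries 1 to 4 and Mir140-null libraries 1 to 4. The neutrophil sum lies between 2.76 and 10.7 TPM in all 8 libraries, and the fibroblast and osteoblast sums are lowest in Mir140-null 1 and 2.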

How the data were processed

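The authors deposited 1 table per library of TPM per Ensembl gene, made with Salmon on mm10 (version not given in the sources used here). Of each table, 540 lines that repeat an identifier were dropped, leaving 52325 genes that sum to 1000000 TPM; 99.8% matched GENCODE M21. The study's methods give 1 lower bound for the single-end reads (75 bases) of all libraries, so the depth of each library is unknown. Genes at 0.5 TPM or more in at least 4 of 8 libraries were tested with limma 3.58.1 (R 4.3.3) on log2(TPM + 1) with a mean-variance trend, two-sided, Benjamini-Hochberg adjusted over all 17177 genes tested; the code was tested on simulated data. The 9 genes and all lists were chosen with earlier results of these data known. Named genes are the 9; of each pathway list the 3 of highest mean TPM and the 3 called of largest fold change; of each cell type list the leading gene and those at 0; and the genes of most similar pattern. Saa1 and Saa2 were added for reads shared with Saa3. Acan, Spp1, Pdgfra, Msn, Itgb1 and Itgam were added after their values were seen. Ahsp, on the erythroid list, was not analysed here, and 1 gene each of the other acute-phase and lymphocyte lists is not reported here and enters no count or sum of its list. Alternatives changed the pseudocount, filter, scaling, replicate block, a factor of unwanted variation and the libraries used.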

Additional observations from a re-analysis of the deposited data

Results flagged for a closer look

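Saa3 in Mir140-null 1, at 3.95 TPM, was far from the other 3 null libraries, which lay between 1.68 and 1.98 TPM: its gap to the nearest was 0.867 of the range of the group. Among the 18 groups looked at, a gap of this size can arise by chance, and how often was not computed. Without this library the log2 fold change of Saa3 was 0.81.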

How the results depend on the processing

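Of 16 alternatives, 4 (both filters, the replicate block and the factor of unwanted variation) cannot move a fold change. In the other 12, the 9 genes gave 108 refitted fold changes. None changed sign, and 105 moved by less than 1 SD between replicates. The exceptions were Saa3 (1.97) and Hp (0.96) with a pseudocount of 0.1, and Icam1 (1.46) with Mir140-null 3 and 4 alone. Of these 12, the 8 fits that left out 1 library cannot move a fold change by 1 SD, because 1 library of 4 shifts a mean by less. Their values under this limit therefore say nothing of stability. The median of the 9 stayed between 0.83 and 1.60. Neither scaling moved the median of all genes by 0.1.

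Counts of genes called moved more. Against 1797 higher and 1100 lower, there were 977 and 539 with no filter, 605 lower with a filter at a mean of 5 TPM, 2016 lower with 1 factor of unwanted variation, and 386 and 234 with Mir140-null 3 and 4 alone. Leaving out 1 library gave from 755 to 1551 higher and from 337 to 1251 lower. On the pathway lists, 19 were called higher and 2 lower; leaving out 1 library gave 9 to 17 and 1 to 4, the factor of unwanted variation 6 lower, no filter or a filter at a mean of 5 TPM 1 lower each, and Mir140-null 3 and 4 alone 4 higher and 1 lower. The causes were not tested.

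With a replicate block, 671 genes were called higher and 454 lower, and on the pathway lists 11 and 0. Same-numbered libraries had correlations of deviations from -0.01 to 0.07, and 0 of 4 wild-type libraries correlated best with their own number, so the numbers were not read as pairs.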
